A study of Aspergillus cristatus with 9 samples.

Results

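The response of *Aspergillus cristatus*, the golden flower fungus, to roots of either *Panax* species was examined by setting 6 root libraries against 3 control libraries. A gene was taken as separated when its FPKM (fragments scaled to coding length and to the mapped total of a library) in all 6 root libraries lay above, or in all 6 lay below, every control. Of 10227 genes listed, 9033 averaged 1 FPKM or more across all 9 libraries. Of these 9033 genes, 988 (10.9%) lay above the controls in all 6 root libraries and 1449 (16%) lay below, together 2437 (27%). These shares are the background against which the gene lists are read, and the separation itself is a description, since the values that chose the genes are the values described.

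RNA was sequenced from strain JLU in 3 groups of 3 libraries. EcRS was the fungus collected after 1 week on *P. ginseng* roots at 28 °C, and EcSQ the fungus after the same time on *P. notoginseng* roots. EcCK was the fungus that had not met a root. All 3 groups began on potato dextrose agar plates for 10 days, and all 9 libraries carry the labels mycelium and 1 week old. The roots had been sterilized beforehand, by autoclaving for *P. ginseng* per the study's methods. The study's methods describe the control material as spores harvested from plates, against the label mycelium. Medium, growth stage and root contact changed together and cannot be told apart. The sources do not say whether replicate libraries were grown as separate cultures. The p-values therefore measure the spread between these libraries alone, which may be technical.

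Filamentous fungi feed on plant material by secreting enzymes that cut cellulose, xylan, pectin and starch, and by taking up the sugars released. Ribosomal proteins and the mitochondrial respiratory chain carry protein synthesis and ATP production in growing hyphae. Heat shock proteins are chaperones that refold or sequester damaged proteins. Zinc cluster proteins form the main family of sequence-specific RNA polymerase II transcription factors in *Aspergillus*.

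The libraries held 45891944 to 52617713 estimated counts in listed genes in EcRS, 53961809 to 55542113 in EcSQ and 56398194 to 61627866 in EcCK. Counts outside the listed genes took 25.2 ± 1.92% in EcRS, 13.3 ± 1.45% in EcSQ and 13.2 ± 1.04% in EcCK (SD, n = 3 each). The EcSQ libraries did not resemble each other closely. Across genes, log2(FPKM + 1) of EcSQ3 correlated at 0.93 to 0.94 with the EcRS libraries and at 0.80 with EcSQ1, while EcSQ1 correlated at 0.91 with EcCK3. These are correlations across genes within pairs of libraries, and genes are not independent replicates. The median FPKM over all listed genes was 5.92, 5.58 and 6.38 in EcRS, 20.7, 14.1 and 4.29 in EcSQ, and 12.6, 14.3 and 19.1 in EcCK. Without EcSQ1 and EcCK3 the counts of separated genes came to 1668 above and 2864 below, and all 988 of the genes above and 1430 of the 1449 below were among them.

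The 988 genes above the controls held 46.5, 44.4 and 48.4% of the summed FPKM of listed genes in EcRS, 34.0, 39.5 and 50.0% in EcSQ, and 7.64, 10.4 and 14.9% in EcCK. The 1449 genes below held 4.18, 5.07 and 4.70% in EcRS, 6.98, 6.26 and 3.43% in EcSQ, and 47.1, 37.5 and 22.1% in EcCK. EcCK3 was the control nearest to the root libraries in both shares. Genes above had a median of 74.25 FPKM on the roots and 23.35 in EcCK, and genes below a median of 8.81 FPKM on the roots and 44.0 in EcCK. Coding length, which the rule did not use, had a median of 921 bases among genes above, 1404 among genes below and 1242 over all genes tested. A named product in the table was found for 263 of the genes above (26.6%) and 152 of the genes below (10.5%), against 16.0% of all genes tested. The term extracellular region was carried by 41 genes above (4.15%) and 27 below (1.86%), against 2.07% of all.

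**Figure D1:**
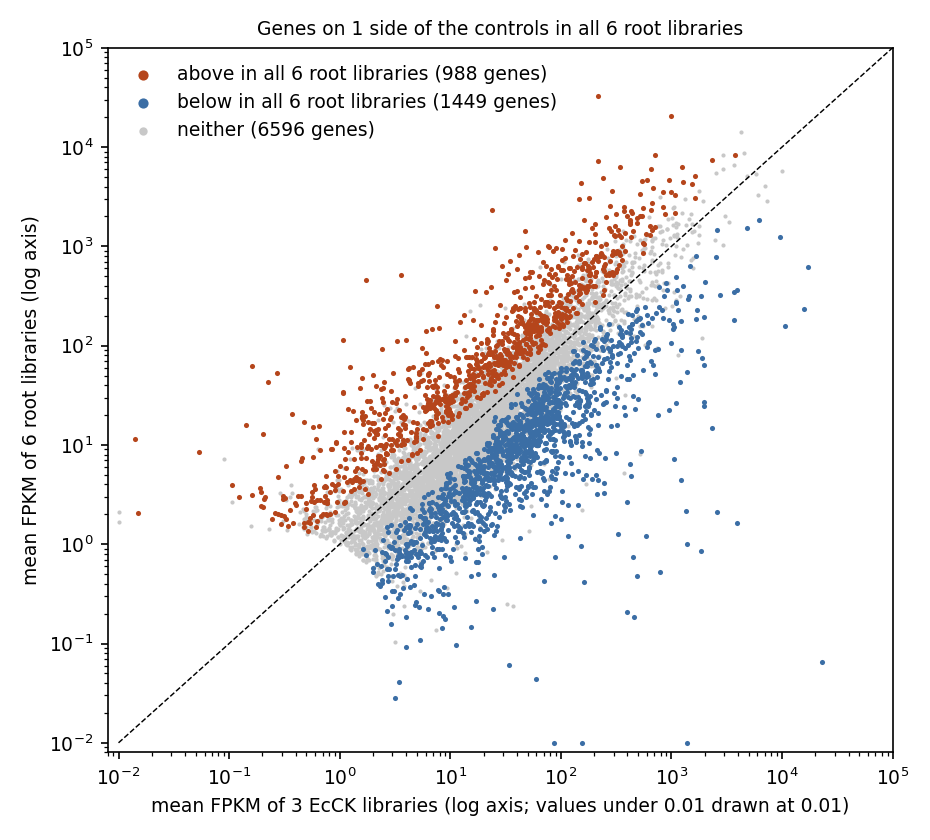
Mean FPKM of each tested gene in the 6 root libraries (y axis) and in the 3 EcCK libraries (x axis), both on log axes. The 988 genes above the controls in every root library lie over the dashed line of equal means and the 1449 below lie under it, while 6596 genes were on neither side.

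The mean of the EcRS and EcSQ levels over EcCK was tested by edgeR's quasi-likelihood method on estimated counts, with Benjamini-Hochberg adjustment over the 9033 genes. A gene was called when it changed 2-fold or more at an adjusted p of at most 0.05. By this test 974 genes (10.8%) were higher and 2275 (25.2%) lower on the roots, 3249 (36%) in all. For EcRS alone over EcCK in the same fit 862 (9.54%) were higher and 3101 (34.3%) lower, and for EcSQ alone over the same controls 714 (7.9%) were higher and 588 (6.51%) lower. Among the separated genes, 812 of the 988 above and 1278 of the 1449 below were called, and these shares are given as a description because rule and test read the same values. The median log2 fold change was 1.74 for genes above (1.65 in EcRS and 1.80 in EcSQ, each over the same EcCK libraries) and -2.28 for genes below (-2.72 in EcRS and -1.72 in EcSQ). Over all genes tested it was -0.54, so a list is best read relative to that value. With TMM scaling the median over all genes was -0.07, with 1812 genes higher and 2125 lower, and the share of lower among called genes was 53.98% in place of 70.02%. With TMM, 875 of the 988 genes and 1057 of the 1449 stayed separated on the same side, and 0 changed side. Log2 fold changes in brackets (log2FC) are roots over EcCK, with ± the standard error.

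EcSQ1 was the highest root library for 1009 of the 1449 genes below (69.6%), and EcCK3 was the highest control for 680 of the 988 genes above (68.8%). EcRS3 was the lowest root library for 46 of the genes above. The gap between the lowest root and the highest control library was at least 2-fold for 291 of the genes above and at least 8-fold for 25, with 0.1 FPKM added to both values here and in each gap below. Among genes below, the gap between the highest root and the lowest control library was at least 2-fold for 374 and at least 8-fold for 25.

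**Figure D2:**
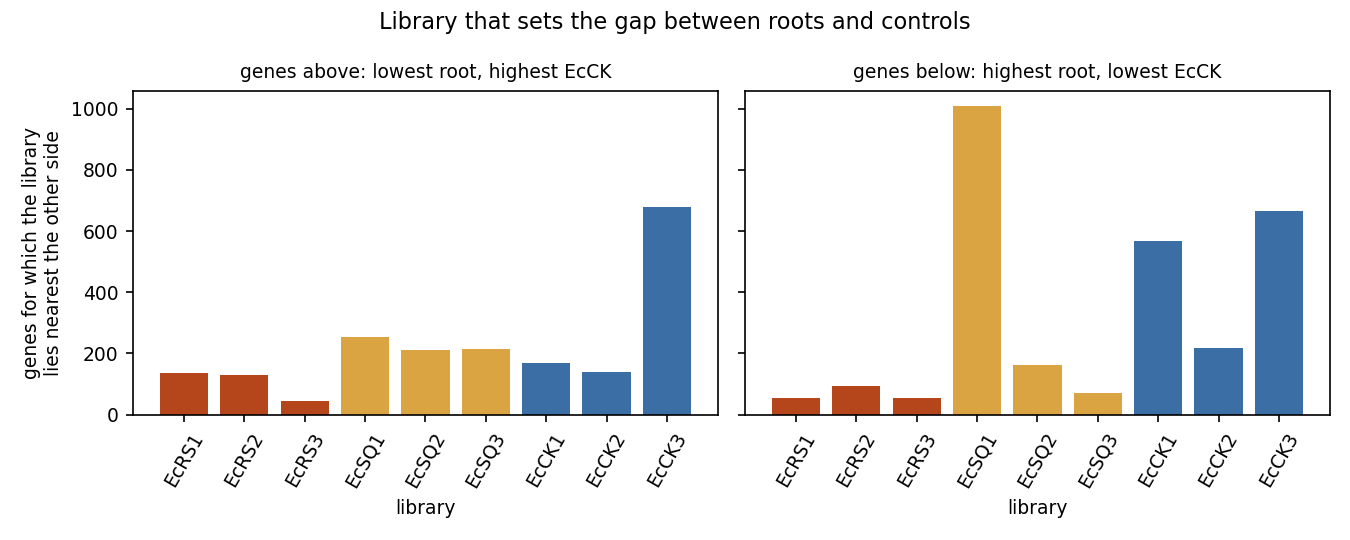
Number of separated genes (y axis) for which each library (x axis) lies nearest to the other side, for the 988 genes above (left) and the 1449 genes below (right). EcSQ1 stands out among root libraries on the right with 1009 genes, and EcCK3 among controls on the left with 680.

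Of the 8 genes with the widest gaps above the controls, 6 encode enzymes that cut plant polysaccharides or proteins that bind sugars. The widest of all belonged to *SI65_09252*, which has no product name and is annotated to carbohydrate binding. It had 979, 468 and 638 FPKM in EcRS, 210.3, 325 and 111 in EcSQ, against 1.55, 1.09 and 2.52 in EcCK (log2FC 7.79 ± 0.64, adjusted p = 1.40e-04). Every root library exceeded every control by at least 42.3-fold. A second sugar-binding gene on the same contig, *SI65_09249*, encodes a Cyanovirin-N protein, a lectin fold that binds mannose-rich glycans. It had 4569, 2648 and 3406 FPKM in EcRS, 1482, 837 and 865 in EcSQ, against 12.2, 14.2 and 44.98 in EcCK (log2FC 6.35 ± 0.63, adjusted p = 2.79e-04). In both genes EcRS lay above EcSQ in each library, and the EcRS and EcSQ values did not overlap.

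The cellulase and xylanase genes with the widest gaps were at most 6.90 FPKM in the controls. *SI65_09823*, an endoglucanase A, which cuts glucan chains from within, had 279, 230.5 and 345 FPKM in EcRS, 1447, 566 and 223 in EcSQ, against 0.958, 2.88 and 6.90 in EcCK (log2FC 6.31 in EcRS and 7.69 in EcSQ, each over the same EcCK libraries, adjusted p = 7.17e-04 for both roots together). *SI65_07774*, annotated to cellulase activity, had 46.5, 65.1 and 55.4 FPKM in EcRS, 138, 144 and 236 in EcSQ, against 0.837, 1.27 and 1.08 in EcCK (log2FC 6.52 ± 0.44, adjusted p = 8.17e-05). The xylan backbone is cut by endo-1,4-beta-xylanases, of which *SI65_04327* (xylanase C) had 15.8, 18.5 and 20.5 FPKM in EcRS, 94.5, 62.99 and 45.1 in EcSQ, against 0.418, 0.0891 and 0.164 in EcCK (log2FC 7.21 ± 0.70, adjusted p = 2.48e-04). In *SI65_07774* and *SI65_04327* every EcSQ library was above every EcRS library, and both were above all controls. *SI65_05244* (xylanase B) had 25.6, 33.9 and 30.6 FPKM in EcRS, 46.6, 40.96 and 21.02 in EcSQ, against 0.879, 0.434 and 1.92 in EcCK (log2FC 4.91 ± 0.67, adjusted p = 8.80e-04), with EcRS and EcSQ overlapping.

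Feruloyl esterases free ferulic acid from xylan side chains, and genes for them lay near genes of these enzymes on 2 contigs. *SI65_09821*, a putative feruloyl esterase A, had 10.2, 8.57 and 10.01 FPKM in EcRS, 24.2, 12.1 and 4.03 in EcSQ, against 0, 0.0422 and 0 in EcCK. It sits on contig 21 of the deposited table at 218593-219533, between the unnamed *SI65_09820*, annotated to cellulase activity and cellulose binding, at 216497-217380 and the endoglucanase *SI65_09823* at 223183-224067. A second pair lay on contig 5, where xylanase B at 167463-168191 is next to the feruloyl esterase *SI65_05245* at 170400-171340. *SI65_05245* had 1.84, 1.65 and 2.21 FPKM in EcRS, 7.17, 3.91 and 1.26 in EcSQ, against 0.0961, 0 and 0.269 in EcCK (log2FC 4.45 ± 1.07, adjusted p = 0.0107). Another putative feruloyl esterase, *SI65_07023* (B-2) on contig 8, was called higher but not separated. It had 4.71 FPKM in EcSQ3, under the 6.06 of EcCK3 (log2FC 2.67 ± 0.81, adjusted p = 0.0268). Of the 10 genes annotated to cellulase or feruloyl esterase activity, a group put together after their values were seen, 7 lay above the controls and 0 below, 8 were called higher, and the median log2 fold change was 4.68.

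An enzyme of pectin and an enzyme of starch breakdown also rose on the roots. Endopolygalacturonase I, *SI65_10113*, which cuts pectin, had 4.85, 7.61 and 4.72 FPKM in EcRS, 31.7, 19.8 and 8.87 in EcSQ, against 0.184, 0.145 and 0.278 in EcCK (log2FC 5.66 ± 0.69, adjusted p = 5.76e-04). The acid alpha-amylase *SI65_00177*, a starch-degrading enzyme, had 60.6, 60.5 and 80.4 FPKM in EcRS, 197, 112 and 155 in EcSQ, against 1.04, 3.27 and 5.59 in EcCK (log2FC 4.95 ± 0.59, adjusted p = 5.65e-04). *SI65_10148*, aspergillopepsin-2, a secreted acid protease, had 10.1, 15.8 and 15.1 FPKM in EcRS, 23.1, 122 and 133 in EcSQ, against 0, 0.232 and 0.576 in EcCK (log2FC 7.01 ± 1.21, adjusted p = 0.00248). EcSQ2 and EcSQ3 stood well above the other root libraries in this protease.

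**Figure D3:**
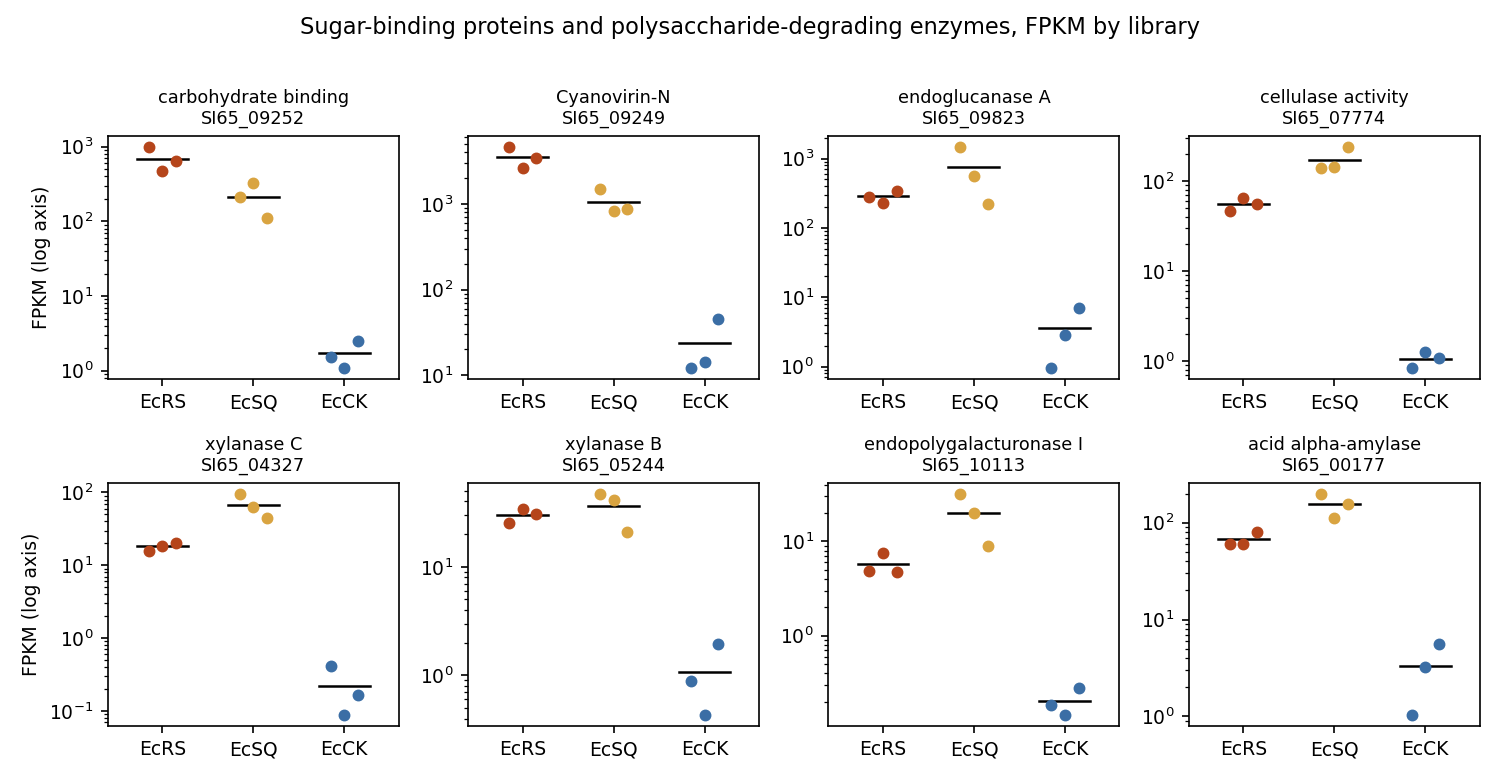
FPKM by library (y axis, log scale) of 8 genes for sugar-binding proteins and polysaccharide-degrading enzymes in EcRS, EcSQ and EcCK (x axis). Points are single libraries and lines the mean of 3. All 6 root libraries lie above all 3 controls in every panel.

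The rise did not extend to every enzyme of wall breakdown. The list for plant cell wall degradation was drawn from enzyme numbers and GO terms and did not include cellulase activity. Of its 39 genes, 5 lay above the controls (12.8%, against 10.9% of all genes) and 7 below (17.95%, against 16%). Of these 39 genes 5 were called higher and 13 lower, and the median log2 fold change was -0.90, against -0.54 over all genes. The medians on the roots had opposite signs, -1.71 in EcRS and 0.30 in EcSQ, each over the same EcCK libraries, and their difference was not tested. With EcRS and EcCK alone 6 were called higher and 21 lower, and with EcSQ and EcCK alone 3 were called higher and 0 lower. The 2 named members with the widest gaps below act on short sugar chains. Beta-glucosidase F, *SI65_07054*, had 3.26, 4.90 and 2.81 FPKM in EcRS, 12.9, 6.47 and 1.26 in EcSQ, against 70.4, 69.7 and 60.2 in EcCK (log2FC -3.74 ± 0.54, adjusted p = 0.00114). The exo-1,4-beta-xylosidase xlnD, *SI65_02741*, had 22.9, 15.9 and 6.82 FPKM in EcRS, 19.6, 15.9 and 3.67 in EcSQ, against 98.3, 123 and 43.1 in EcCK (log2FC -2.64 ± 0.54, adjusted p = 0.00535). In both genes EcSQ3 was the lowest of the root libraries.

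Sugar uptake genes lay more often above than below. Of 22 tested genes for sugar transport, 8 were above the controls (36.4%, against 10.9% of all genes) and 2 below (9.1%, against 16%), with 7 called higher and 6 lower. *SI65_08853*, annotated to xylose and glycerol transport across the plasma membrane, had 34.8 ± 7.68 FPKM in EcRS and 44.5 ± 35.2 in EcSQ, against 5.09 ± 0.883 in EcCK (SD, n = 3 each) (log2FC 2.95 ± 0.55, adjusted p = 0.00346). *SI65_06178*, with the same annotation, had 8.63 ± 1.97 FPKM in EcRS and 10.2 ± 6.82 in EcSQ, against 1.42 ± 0.552 in EcCK (SD, n = 3 each) (log2FC 2.72 ± 0.58, adjusted p = 0.00657). Glucokinase, *SI65_10226*, which traps glucose in the cell, was listed with them and went the other way, at 50.7 to 81.9 FPKM over the root libraries, against 150.1 to 248 in EcCK (log2FC -1.47 ± 0.29, adjusted p = 0.00441). The other member below, *SI65_06685*, carries the KEGG entry of a sugar transporter. It had 0, 0 and 0 FPKM in EcRS, 1.63, 0.427 and 0 in EcSQ, against 16.5, 4.59 and 2.26 in EcCK, and was called lower.

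Among genes above the controls and called higher, those most abundant on the roots included several of unknown function. *SI65_07419*, a coding sequence of 546 bases without annotation, had 29532, 25543 and 27194 FPKM in EcRS, 23729, 16910.3 and 74803 in EcSQ, against 83.7, 468 and 100.3 in EcCK (log2FC 7.22 ± 0.94, adjusted p = 7.17e-04). EcSQ3 was the highest library. *SI65_06064* had 29717, 20854 and 26310.4 FPKM in EcRS, 16262, 24087 and 6922 in EcSQ, against 989, 1252 and 702 in EcCK (log2FC 4.36 ± 0.53, adjusted p = 5.76e-04), with EcSQ3 the lowest of the root libraries here. *SI65_10010* had 6839, 6923 and 8011 FPKM in EcRS, 5499, 10691 and 4959 in EcSQ, against 101, 308 and 240.4 in EcCK (log2FC 5.04 ± 0.55, adjusted p = 3.86e-04) and *SI65_04725* had 3306 to 15365 FPKM over the root libraries, against 336 to 982 in EcCK. Histone H3, *SI65_05286*, a core component of chromatin, was also among the 5 most abundant of these genes. It had 3861 to 10268 FPKM over the root libraries, against 1913 to 2569.5 in EcCK (log2FC 1.68 ± 0.38, adjusted p = 0.00876).

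Most genes for cytosolic ribosomal proteins were called higher on the roots. Of 62 cytosolic ribosomal proteins tested, 31 lay above the controls in all root libraries and 0 below, 41 were called higher and 1 lower, and the median log2 fold change was 1.47, which is 2.01 above the median of all genes. Their summed FPKM took 9.32, 7.49 and 8.63% of that of listed genes in EcRS, 7.80, 6.93 and 4.93% in EcSQ, and 1.81, 2.68 and 4.79% in EcCK. The lowest root share, in EcSQ3, and the highest control share, in EcCK3, were close to each other. The ribosomal protein S22 gene, *SI65_08306*, had 2010.2, 1206 and 1491 FPKM in EcRS, 1162, 1130.4 and 2172 in EcSQ, against 196, 255 and 364 in EcCK (log2FC 2.49 ± 0.39, adjusted p = 0.00163). *SI65_05891*, the fusion of ubiquitin with ribosomal protein S27a, had 2882, 1982 and 2122 FPKM in EcRS, 2065, 1579 and 3107 in EcSQ, against 278, 297 and 547 in EcCK (log2FC 2.61 ± 0.40, adjusted p = 0.00146). With only the EcSQ and EcCK libraries in the fit 4 of the 62 were called higher, at a median of 1.33, and with only EcRS and EcCK 50 were.

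Single genes for factors around the ribosome also lay above the controls, while their pathways as a whole had more genes called lower than higher. *SI65_08720*, the 13 kDa ribonucleoprotein-associated protein of the spliceosome and of small nucleolar particles, had 896 ± 167 FPKM in EcRS and 636 ± 136 in EcSQ, against 109 ± 11.8 in EcCK (SD, n = 3 each) (log2FC 2.79 ± 0.31, adjusted p = 4.24e-04). *SI65_10166*, the RNA helicase eIF4A that opens messenger RNA for translation, had 1158 ± 115 FPKM in EcRS and 1065 ± 789 in EcSQ, against 178 ± 63.4 in EcCK (SD, n = 3 each) (log2FC 2.64 ± 0.50, adjusted p = 0.00364). Ribosome biogenesis had 10 of 92 genes above (10.9%, the share of all genes) and 4 below (4.3%, against 16%). Its calls were 8 higher and 17 lower, against 10.8% and 25.2% of all genes, and its median was 0.07 under that of all genes. RNA transport had 13 of 111 genes above (11.7%) and 12 below (10.8%), with 10 called higher and 27 lower.

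Genes of the oxidative phosphorylation map lay above the controls far more often than below. Of 94 genes in oxidative phosphorylation, 38 lay above the controls (40.4%, against 10.9% of all genes) and 3 below (3.2%, against 16%). Calls were 38 higher and 7 lower, against 10.8% and 25.2% of all genes, and the median log2 fold change was 0.79. *SI65_09225*, the plasma membrane ATPase, a proton pump that the pathway map also holds, had 217, 237 and 249 FPKM in EcRS, 321, 701 and 396 in EcSQ, against 32.02, 57.4 and 31.8 in EcCK (log2FC 3.04 ± 0.40, adjusted p = 7.36e-04). Inorganic pyrophosphatase, *SI65_10315*, which clears pyrophosphate from biosynthesis, had 2209, 2300.0 and 2539 FPKM in EcRS, 1258, 1676 and 1741 in EcSQ, against 141, 204 and 425 in EcCK (log2FC 2.90 ± 0.43, adjusted p = 0.00121). *SI65_05642*, a small subunit of the mitochondrial ATP synthase, had 1689 ± 334 FPKM in EcRS and 642 ± 429 in EcSQ, against 108 ± 26.6 in EcCK (SD, n = 3 each) (log2FC 3.26 ± 0.47, adjusted p = 0.00113). Of the 3 genes below, *SI65_05384* had the widest gap, and its enzyme number is that of an NADH dehydrogenase. It had 2.52 to 56.4 FPKM over the root libraries, against 106 to 249 in EcCK (log2FC -4.25 ± 0.69, adjusted p = 0.00188). With EcSQ and EcCK alone 2 of the 94 genes were called higher, at a median of 0.86.

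The TCA cycle gave 8 genes above (19.05%, against 10.9% of all genes) and 3 below (7.1%, against 16%) of 42 tested. Glycolysis with gluconeogenesis gave 7 above (7.3%) and 16 below (16.7%) of 96. The beta subunit of pyruvate dehydrogenase E1, *SI65_07510*, which links both pathways, had 181 to 591 FPKM over the root libraries, against 84.2 to 98.1 in EcCK (log2FC 2.02 ± 0.40, adjusted p = 0.00491). Glycolysis had 7 genes called higher and 23 lower, with a median of -0.47, close to that of all genes. The member below with the widest gap was *SI65_05771*, whose enzyme number is that of an alcohol dehydrogenase while its GO terms are those of a heme-containing oxygenase.

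Some enzymes that build the wall of the fungus itself rose on the roots. The 1,3-beta-glucanosyltransferase gel1, *SI65_07291*, which elongates and branches the glucan of the fungal wall, had 2286, 2740.8 and 2964 FPKM in EcRS, 1209, 2201 and 3955 in EcSQ, against 228, 279 and 329 in EcCK (log2FC 3.20 ± 0.45, adjusted p = 0.00102). A second gene of that activity, *SI65_09649*, had 378, 458 and 685.2 FPKM in EcRS, 240.3, 447 and 932 in EcSQ, against 31.002, 34.6 and 34.1 in EcCK (log2FC 3.97 ± 0.50, adjusted p = 6.59e-04). All root libraries exceeded the controls by at least 6.92-fold in *SI65_09649*. Of 76 genes for fungal wall organization, 20 lay above (26.3%, against 10.9% of all genes) and 14 below (18.4%, against 16%). Calls were 21 higher and 12 lower, against 10.8% and 25.2% of all genes. *SI65_02896*, annotated to UDP-galactopyranose mutase, which supplies galactofuranose to the *Aspergillus* wall, had 692 ± 175 FPKM in EcRS and 902 ± 301 in EcSQ, against 128 ± 57.6 in EcCK (SD, n = 3 each) (log2FC 2.63 ± 0.43, adjusted p = 0.00203).

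Chitin turnover went the opposite way in its leading member. Endochitinase 1, *SI65_05892*, which cuts the chitin of the fungal wall, had 27.4, 26.8 and 21.6 FPKM in EcRS, 35.1, 8.53 and 0.353 in EcSQ, against 506, 502 and 128 in EcCK (log2FC -4.30 ± 0.90, adjusted p = 0.00593). EcSQ3 had almost none of it. Amino sugar metabolism, the list that holds it, gave 14 of 80 genes above (17.5%, against 10.9% of all genes) and 16 below (20%, against 16%). On the side above, *SI65_09388*, annotated as a UDP-glucose 4-epimerase, had 203 to 658 FPKM over the root libraries, against 25.1 to 81.2 in EcCK (log2FC 2.85 ± 0.44, adjusted p = 0.00151).

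Ergosterol is the sterol of fungal membranes. In its pathway 14 of 50 tested genes lay above (28%, against 10.9% of all genes) and 9 below (18%, against 16%). Calls were 11 higher and 9 lower, against 10.8% and 25.2% of all genes. *SI65_10136*, annotated to the sterol delta-isomerase step, had 50.7, 38.5 and 52.6 FPKM in EcRS, 23.3, 28.98 and 62.3 in EcSQ, against 0.994, 2.27 and 4.24 in EcCK (log2FC 4.08 ± 0.65, adjusted p = 0.00174). *SI65_01246*, the sterol reductase of the last step, had 63.7, 68.9 and 100.5 FPKM in EcRS, 56.1, 104 and 70.2 in EcSQ, against 14.05, 16.1 and 16.6 in EcCK (log2FC 2.31 ± 0.35, adjusted p = 0.00133). In both the root libraries of the 2 groups overlapped each other and lay clear of the controls.

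Antioxidant enzymes were on the side above more often than below. Of 33 genes, 12 lay above (36.4%, against 10.9% of all genes) and 4 below (12.1%, against 16%). Calls were 10 higher and 5 lower, against 10.8% and 25.2% of all genes, with a median of 0.52. Superoxide dismutase, *SI65_03875*, had 4794, 3144 and 3229 FPKM in EcRS, 3159, 1957 and 3977 in EcSQ, against 429, 452 and 682 in EcCK (log2FC 2.69 ± 0.38, adjusted p = 0.00106). The putative peroxiredoxin pmp20, *SI65_08963*, had 852, 595 and 609.6 FPKM in EcRS, 368, 289.6 and 132 in EcSQ, against 32.2, 45.9 and 63.6 in EcCK (log2FC 3.17 ± 0.44, adjusted p = 9.52e-04). EcSQ3, at the low end here, was still 2.07-fold above the highest control.

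Single genes of the cell cycle and of amino acid metabolism lay above the controls. Cyclin-dependent kinase 1, *SI65_07139*, which drives entry into mitosis, had 230.1 ± 33.03 FPKM in EcRS and 249.5 ± 203 in EcSQ, against 47.1 ± 25.7 in EcCK (SD, n = 3 each) (log2FC 2.35 ± 0.56, adjusted p = 0.0102). Proliferating cell nuclear antigen, *SI65_01606*, the sliding clamp of DNA replication, had 209 ± 15.7 FPKM in EcRS and 137 ± 17.8 in EcSQ, against 44.5 ± 18.5 in EcCK (SD, n = 3 each) (log2FC 1.93 ± 0.34, adjusted p = 0.00282). The cell cycle list as a whole gave 12 of 121 genes above (9.9%, against 10.9% of all genes) and 9 below (7.4%, against 16%). Calls in it were 13 higher and 15 lower, against 10.8% and 25.2% of all genes. Tryptophan synthesis was represented by *SI65_08444* (tryptophan synthase, 224 to 708 FPKM over the root libraries, against 44.5 to 68.8 in EcCK, log2 fold change 2.76) and *SI65_00259* (anthranilate phosphoribosyltransferase, 268 to 1195 FPKM over the root libraries, against 68.7 to 96.1 in EcCK, log2 fold change 2.82). The 4-aminobutyrate aminotransferase *SI65_03005*, which breaks down GABA, had 332 to 898 FPKM over the root libraries, against 38.4 to 99.4 in EcCK (log2FC 3.14 ± 0.46, adjusted p = 0.00125).

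**Figure D4:**
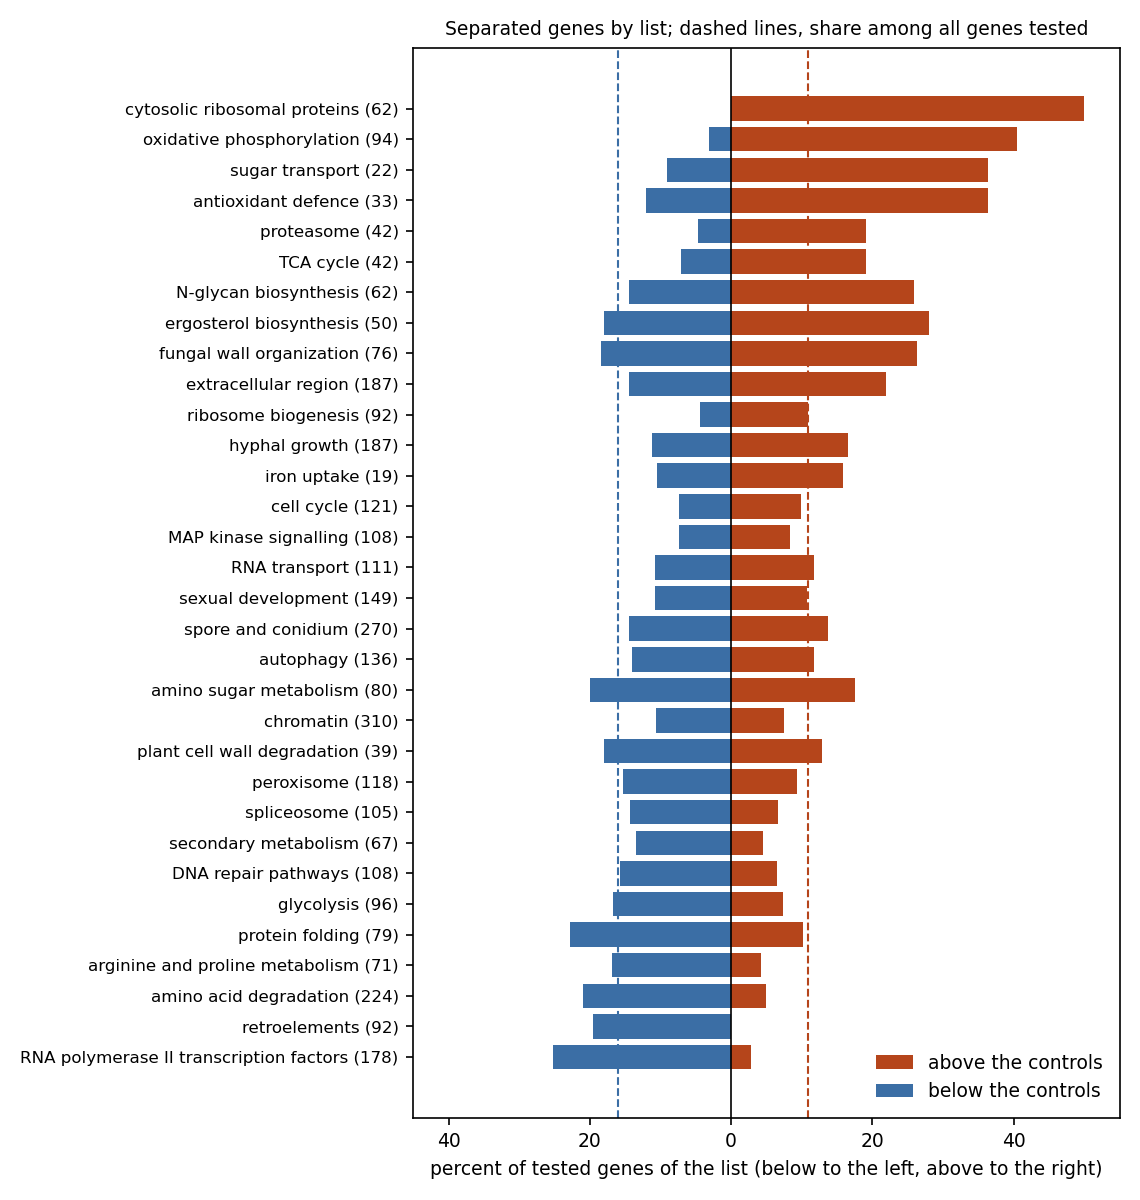
Percent of the tested genes of each of 32 lists (y axis, number tested in brackets) that lie above (right) or below (left) the controls in all 6 root libraries. Dashed lines mark 10.9% above and 16% below among all 9033 genes. Cytosolic ribosomal proteins lead on the right with 31 of 62, and RNA polymerase II transcription factors on the left with 45 of 178.

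Of the 5 genes below with the highest control levels, 3 are described as heat shock proteins and 1, *SI65_03073*, is annotated to heat shock protein binding. *SI65_03073* carries the same KEGG entry as both 30 kDa heat shock proteins. It has no named product, so the group of 13 that follows leaves it out. Of the 13 genes described as heat shock proteins or Hsp70 cofactors, a group put together after their values were seen, 10 lay below the controls and 1 above, and 11 were called lower and 1 higher. Their median log2 fold change was -3.66, being -4.21 in EcRS and -2.79 in EcSQ. The 30 kDa heat shock protein *SI65_09754* had 401, 269 and 433 FPKM in EcRS, 93.5, 45.1 and 174 in EcSQ, against 28283, 17258 and 1409.7 in EcCK (log2FC -6.32 ± 0.76, adjusted p = 5.76e-04). The other 30 kDa heat shock protein, *SI65_02789*, had 1015, 767 and 998 FPKM in EcRS, 103, 117 and 691 in EcSQ, against 33109.9, 16399 and 1969 in EcCK (log2FC -5.02 ± 0.81, adjusted p = 0.00183). *SI65_03073*, annotated to heat shock protein binding, had 193, 167 and 222 FPKM in EcRS, 80.04, 44.8 and 232 in EcSQ, against 17719, 12301 and 2196 in EcCK (log2FC -6.14 ± 0.67, adjusted p = 3.81e-04). In all 3 genes EcCK3 was far under EcCK1 and EcCK2 and still above every root library.

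Large chaperones were lower as well. HSP90, *SI65_04906*, which folds kinases and other client proteins, had 89.2, 93.97 and 118 FPKM in EcRS, 242, 293 and 245 in EcSQ, against 4142, 5035 and 1846 in EcCK (log2FC -4.51 ± 0.36, adjusted p = 1.14e-04). Its EcSQ libraries were all above the EcRS libraries. The disaggregase hsp98, *SI65_08374*, had 73.4, 78.2 and 88.8 FPKM in EcRS, 48.5, 48.5 and 42.2 in EcSQ, against 2743, 2682 and 453 in EcCK (log2FC -5.01 ± 0.49, adjusted p = 2.67e-04), and its mitochondrial relative Hsp78, *SI65_07895*, had 27.8, 31.8 and 21.4 FPKM in EcRS, 17.7, 13.7 and 21.2 in EcSQ, against 1779, 912 and 183 in EcCK (log2FC -5.46 ± 0.56, adjusted p = 2.84e-04). The Hsp70 nucleotide exchange factor fes1, *SI65_03472*, had 14.996, 12.9 and 11.96 FPKM in EcRS, 51.3, 17.2 and 12.3 in EcSQ, against 1262, 775 and 240.3 in EcCK (log2FC -5.33 ± 0.56, adjusted p = 3.16e-04). A 70 kDa heat shock protein, *SI65_01213*, was the most abundant of the large ones, with 903, 1179 and 1043 FPKM in EcRS, 1036, 1599.6 and 1640.4 in EcSQ, against 12606, 11479 and 4602 in EcCK (log2FC -2.97 ± 0.38, adjusted p = 6.50e-04).

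The 3 remaining members were not below in every root library. SSB1, *SI65_04873*, an Hsp70 that sits at the ribosome and binds new chains in yeast, had 448, 416 and 505 FPKM in EcRS, 431, 517 and 736 in EcSQ, against 89.9, 74.7 and 174 in EcCK (log2FC 2.16 ± 0.38, adjusted p = 0.00278). Heat shock protein 60, *SI65_04159*, was called lower but not separated, at 376 to 1255 FPKM over the root libraries, against 881 to 1934 in EcCK (log2FC -1.44 ± 0.40, adjusted p = 0.0189). The mitochondrial 10 kDa protein *SI65_05178* was not called, at 698 to 2403 FPKM over the root libraries, against 1473 to 3222 in EcCK (log2FC -1.14 ± 0.41, adjusted p = 0.0517). Protein folding as a list gave 8 of 79 genes above (10.1%, against 10.9% of all genes) and 18 below (22.8%, against 16%). Calls were 7 higher and 26 lower, against 10.8% and 25.2% of all genes, with a median 0.11 under that of all genes. Without EcSQ1 and EcCK3, 14 of the 79 lay above and 35 below.

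**Figure D5:**
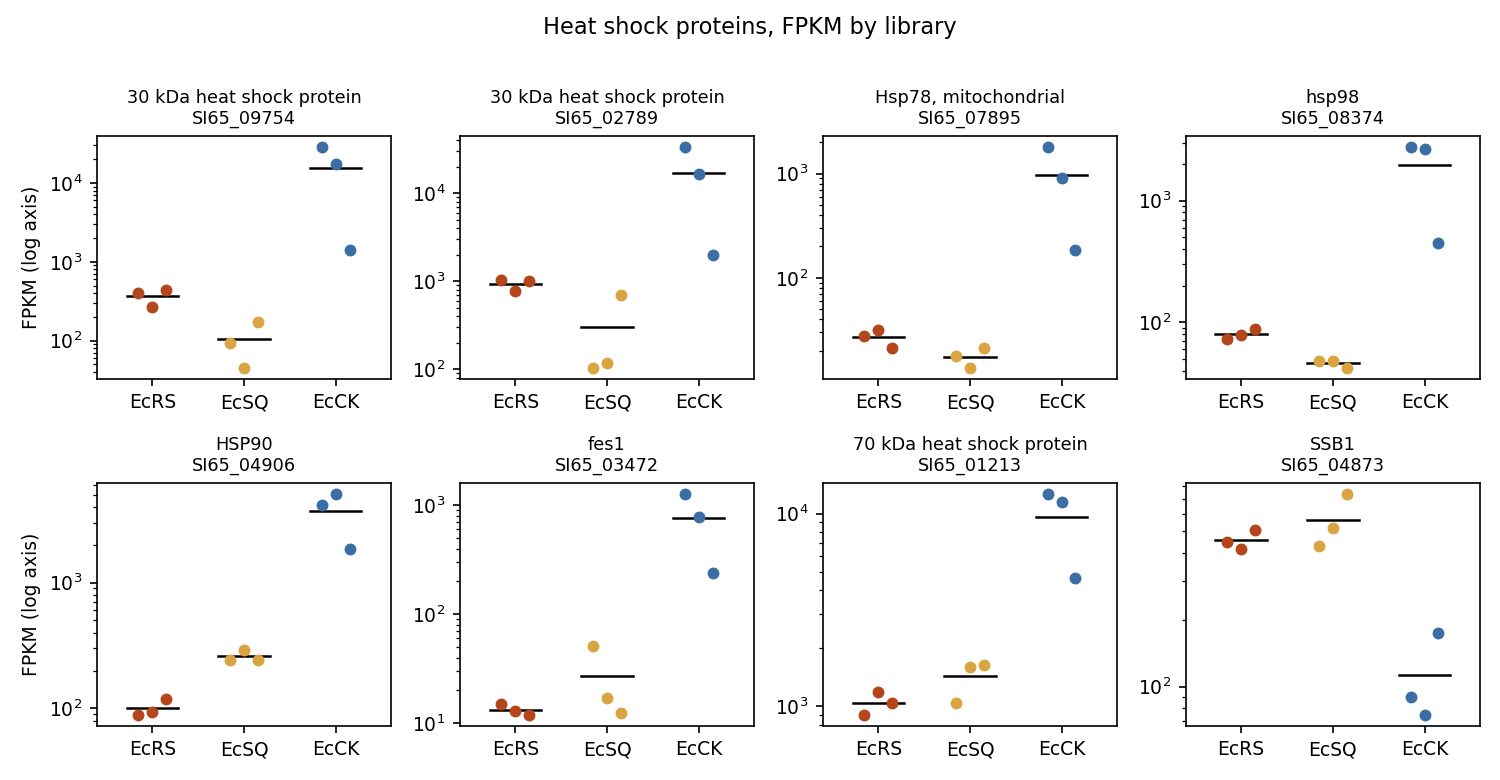
FPKM by library (y axis, log scale) of 8 heat shock genes in EcRS, EcSQ and EcCK (x axis). Points are single libraries and lines the mean of 3. In 7 panels all root libraries lie under all controls, with EcCK3 the lowest control, and in the panel of SSB1 all root libraries lie above.

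Trehalose, a sugar that stabilizes proteins in fungal cells, is made by the synthase complex to which *SI65_06216* is annotated. It had 39.8, 42.4 and 48.2 FPKM in EcRS, 84.4, 68.9 and 23.6 in EcSQ, against 788, 1050.1 and 306 in EcCK (log2FC -3.82 ± 0.45, adjusted p = 5.55e-04). The root libraries reached at most 0.28 of the lowest control.

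Other abundant control transcripts were close to absent on the roots. *SI65_09609*, an unannotated coding sequence of 402 bases on contig 20, had 0.0365, 0 and 0 FPKM in EcRS, 0.0874, 0.265 and 0 in EcSQ, against 57669, 11529.9 and 254 in EcCK. *SI65_09562* had 0, 0 and 0 FPKM in EcRS, 0, 0 and 0 in EcSQ, against 3346, 818 and 14.9 in EcCK. A floor of 3 counts in a library corresponds to 0.134 FPKM for this gene, so the EcCK mean of 1393 FPKM was at least 10402-fold higher. The controls were themselves far apart in both genes, with EcCK1 the highest and EcCK3 the lowest. *SI65_09562* was the only 1 of the 2437 separated genes at 0 in every library of a side.

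Other genes with wide gaps below were expressed in every control. *SI65_06299*, annotated to the mitochondrial intermembrane space and aerobic respiration, had 31.7, 37.5 and 23.2 FPKM in EcRS, 28.95, 11.6 and 28.9 in EcSQ, against 2318, 2575 and 986 in EcCK (log2FC -6.20 ± 0.43, adjusted p = 8.17e-05). *SI65_03612*, annotated to cell polarity and membrane rafts, had 3.57, 3.93 and 2.30 FPKM in EcRS, 4.75, 1.72 and 3.17 in EcSQ, against 285, 265 and 86.01 in EcCK (log2FC -6.03 ± 0.47, adjusted p = 1.14e-04). *SI65_00612* had 13.4, 15.97 and 13.998 FPKM in EcRS, 6.89, 1.14 and 0.562 in EcSQ, against 445, 687 and 468 in EcCK (log2FC -6.37 ± 0.66, adjusted p = 3.02e-04) and was lowest in EcSQ2 and EcSQ3. *SI65_04220* had 0.878 to 3.53 FPKM over the root libraries, against 45.8 to 64.6 in EcCK (log2FC -4.84 ± 0.51, adjusted p = 3.02e-04).

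Of the 32 lists, transcription factors had the largest share below. Of 178 genes annotated as sequence-specific RNA polymerase II factors, 45 lay below the controls (25.3%, against 16% of all genes) and 5 above (2.8%, against 10.9%). Calls were 73 lower and 4 higher, against 25.2% and 10.8% of all genes. The median log2 fold change was -1.22, which is 0.68 under that of all genes. With TMM scaling 67 were called lower and 9 higher. Most are at low levels. *SI65_05637* had 1.96, 3.08 and 2.25 FPKM in EcRS, 4.55, 3.51 and 1.05 in EcSQ, against 29.6, 41.2 and 25.9 in EcCK (log2FC -3.57 ± 0.47, adjusted p = 7.36e-04), and *SI65_00685* had 0.657, 1.002 and 0.377 FPKM in EcRS, 4.05, 1.66 and 0.437 in EcSQ, against 11.9, 13.3 and 11.9 in EcCK (log2FC -3.39 ± 0.61, adjusted p = 0.00309). The enzyme number of *SI65_00685* is that of a ubiquitin ligase, so its role as a transcription factor is uncertain. With EcSQ and EcCK alone 3 of the 178 were called lower, at a median of -0.52, and with EcRS and EcCK alone 125 of 174 were.

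Genes for the breakdown of amino acids lay more often below than above, as did all genes tested. In amino acid degradation 47 of 224 genes were below and 11 above, with 62 called lower and 14 higher, although the median was 0.07 under that of all genes. Copper amine oxidase 1, *SI65_09748*, which releases ammonia from amines, had 0.0654, 0.212 and 0.224 FPKM in EcRS, 0.506, 0.404 and 0 in EcSQ, against 14.3, 12.4 and 6.04 in EcCK (log2FC -5.57 ± 0.97, adjusted p = 0.00261). The monophenol monooxygenase (tyrosinase) *SI65_07250* had 0.0940 to 0.314 FPKM over the root libraries, against 4.91 to 10.5 in EcCK (log2FC -5.31 ± 0.49, adjusted p = 2.03e-04). Arginine and proline metabolism gave 3 of 71 above (4.2%) and 12 below (16.9%). There *SI65_08013*, with the enzyme number of agmatine deiminase, had 0.831, 1.24 and 1.02 FPKM in EcRS, 55.02, 32.7 and 1.39 in EcSQ, against 279.9, 302 and 269.5 in EcCK (log2FC -5.68 ± 0.76, adjusted p = 8.01e-04), and EcSQ1 and EcSQ2 stood apart from the other 4 root libraries. Ammonium transporter 1, *SI65_02845*, had 0.545 to 5.11 FPKM over the root libraries, against 27.2 to 54.999 in EcCK (log2FC -3.60 ± 0.61, adjusted p = 0.00242).

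Genes for DNA repair gave 17 of 108 below (15.7%, near the 16% of all genes tested) and 7 above (6.5%, against 10.9%). Of the 108 genes 34 were called lower and 7 higher, and the median of -1.11 was 0.57 under that of all genes. *SI65_05595*, the larger Ku subunit that binds broken DNA ends, had 9.88, 9.70 and 8.06 FPKM in EcRS, 38.5, 23.8 and 6.68 in EcSQ, against 86.7, 89.5 and 95.9 in EcCK (log2FC -2.64 ± 0.43, adjusted p = 0.00196). *SI65_09289*, mapped to nucleotide excision repair through a basal transcription factor entry, had 0.507 to 1.08 FPKM over the root libraries, against 8.32 to 12.7 in EcCK (log2FC -3.78 ± 0.39, adjusted p = 3.02e-04). Among genes of retroelements 18 of 92 lay below the controls (19.6%) and 0 above, and 31 were called lower. The spliceosome gave 7 of 105 above and 15 below, and chromatin 23 of 310 above and 33 below, with medians 0.21 and 0.08 under that of all genes.

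Genes below tended to lie next to each other more often than all genes did. For 368 of 1442 genes below with a next tested gene on the contig (25.52%), that neighbour was also below, against 16.05% over all genes. For genes above the shares were 16.23% (160 of 986) and 10.99%. Runs of at least 5 neighbouring genes numbered 9 among genes below and 0 among genes above, and the longest held 6 genes. The run on contig 2 from *SI65_02289* to *SI65_02294* (364549-376294) had all 6 genes called lower. Its last gene, *SI65_02294*, a hexosyltransferase annotated to lipid glycosylation, had 2.67, 4.76 and 2.05 FPKM in EcRS, 17.2, 2.78 and 0.360 in EcSQ, against 278, 240.0 and 106 in EcCK (log2FC -5.49 ± 0.87, adjusted p = 0.00174).

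The run of 6 on contig 1, from *SI65_01228* to *SI65_01233* (3346946-3359546), had 3 genes called lower. *SI65_01233*, annotated to 6-phosphofructo-2-kinase, had 56.2 to 101 FPKM over the root libraries, against 123 to 165 in EcCK (log2FC -0.81 ± 0.28, adjusted p = 0.0424), and so fell short of a 2-fold change. A run of 5 on contig 5 (1613898-1627726), singled out after its values were seen, was called lower in all 5 genes and has oxidase and hydrolase annotations that include the endocrocin and asperthecin pathways, both fungal polyketides. *SI65_05770* in it, an oxygenase with a heme-binding term, had 14.1, 12.9 and 10.3 FPKM in EcRS, 50.7, 47.4 and 24.3 in EcSQ, against 1443, 988 and 901 in EcCK (log2FC -5.62 ± 0.34, adjusted p = 5.62e-05). The control levels of its neighbour *SI65_05771* were also high and even, at 20.6, 17.8 and 23.4 FPKM in EcRS, 40.9, 45.1 and 51.5 in EcSQ, against 344, 262 and 310.3 in EcCK (log2FC -3.31 ± 0.25, adjusted p = 1.14e-04).

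The levels on the 2 roots were compared directly for the separated genes. EcRS over EcSQ was called for 229 of the 2437 (28 with EcRS higher, 201 with EcSQ higher), against 12.9% of all genes tested (1.27% and 11.7% by direction). Among genes above 9 had EcRS higher and 16 EcSQ higher, and 963 were not called (2.53% called). Among genes below 19 had EcRS higher and 185 EcSQ higher (14.08% called). The rule asks both roots to lie on the same side of the controls, which limits how far they can differ, so these shares are a description. The median log2 of EcRS over EcSQ was -0.05 among genes above, -0.90 among genes below and -0.86 over all genes tested. The count of calls between the roots was not stable to leaving out libraries, for a reason that was not tested. Leaving out 1 library at a time gave 0 to 952 of them by edgeR, the 952 without EcSQ3 and 0 without EcRS2, EcRS3 or EcSQ2. In those 3 fits 410, 464 and 517 passed at an unadjusted p of at most 0.05, against 592 with all 9 libraries. A gene not called is therefore not shown to have equal levels on both roots.

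Among the genes above with EcSQ higher were the cellulase gene *SI65_07774* (log2 of EcRS over EcSQ -1.63 ± 0.37, adjusted p = 0.0342) and xylanase C, *SI65_04327* (log2 of EcRS over EcSQ -1.89 ± 0.56, adjusted p = 0.0492). The sugar-binding gene *SI65_09252* had EcRS higher (log2 of EcRS over EcSQ 1.69 ± 0.49, adjusted p = 0.0482). HSP90, *SI65_04906*, was below on both roots, by log2 fold changes of -5.19 in EcRS and -3.82 in EcSQ over the same controls, while the difference between the roots did not pass the test (log2 of EcRS over EcSQ -1.37 ± 0.42, adjusted p = 0.053). *SI65_05770* was likewise lower by log2 fold changes of -6.48 in EcRS and -4.77 in EcSQ, and here the roots differed (log2 of EcRS over EcSQ -1.72 ± 0.38, adjusted p = 0.0342).

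Spore and conidium genes, which bear on the 2 descriptions of the control material, lay on both sides. Of 270 genes with such terms, 37 were above the controls and 39 below, 32 called higher and 67 lower, with a median of -0.11 that became 0.38 with TMM scaling. Their summed FPKM ran from 41977 to 45541 in EcRS, from 38732 to 60107 in EcSQ and from 27517 to 36966 in EcCK. The rodlet protein, *SI65_07477*, a hydrophobin that coats conidia, was chosen after its values were seen and had 4336, 3007 and 3305 FPKM in EcRS, 5772, 3886 and 6089.7 in EcSQ, against 451, 746 and 2592 in EcCK (log2FC 1.77 ± 0.54, adjusted p = 0.0276). Its call did not hold without EcCK1, EcCK2, EcRS1 or EcRS3. The conidiation regulator brlA, *SI65_02778*, was not separated, at 23.4, 26.3 and 35.2 FPKM in EcRS, 46.02, 71.99 and 61.8 in EcSQ, against 8.98, 15.02 and 34.6 in EcCK (log2FC 1.08 ± 0.46, adjusted p = 0.0853, and log2FC 1.78, called, without EcCK3). Neither did abaA, *SI65_01598*, separate, at 0.927 to 9.86 FPKM over the root libraries, against 3.98 to 7.03 in EcCK. Of the 5 genes described as conidiation proteins, a group also put together after their values were seen, 1 lay above the controls and 0 below, and 1 was called higher (median 0.44). With TMM scaling 3 of the 5 lay above and 0 below, and 3 were called higher (median 1.08), so this count depends on the scaling. Sexual development gave 16 of 149 genes above and 16 below (median -0.07, with TMM 0.55), and hyphal growth 31 of 187 above and 21 below (median -0.02, with TMM 0.55). Their part in the other results was not tested.

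The rule has a sharp edge, and genes on both sides of it had similar values. Just inside above were *SI65_01260* (6.44 to 22.03 FPKM over the root libraries, against 3.44 to 6.44 in EcCK) and *SI65_06936* (14.4 to 236 FPKM over the root libraries, against 2.80 to 14.4 in EcCK), and just outside was *SI65_05071* (2.96 to 10.1 FPKM over the root libraries, against 1.74 to 2.96 in EcCK). Just inside below were *SI65_01232* (0.755 to 74.2 FPKM over the root libraries, against 74.3 to 83.5 in EcCK) and *SI65_04904* (21.98 to 65.8 FPKM over the root libraries, against 65.9 to 72.8 in EcCK), and just outside were *SI65_09937* (0.524 to 4.83 FPKM over the root libraries, against 4.83 to 9.92 in EcCK) and *SI65_00781* (9.74 to 21.6 FPKM over the root libraries, against 21.6 to 28.9 in EcCK).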

How the data were processed

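Fungal RNA from 9 libraries (EcRS, EcSQ and EcCK, 3 each) was sequenced by the authors, who aligned paired reads to a reference genome. Bowtie 0.12.2, StringTie 1.3.0 and HISAT2 2.0 are listed, with no role, in the submitters' processing notes. The authors deposited FPKM, scaled to all mapped units and to coding length, for 10227 genes on 54 contigs. The estimated counts deposited beside them by the authors derive from coverage, hold several units per read pair and were whole numbers already. The study names a genome assembly, but whether these contigs belong to it was not settled, so positions are those of the deposited table. Whether counting used strand is not given in the sources used here, and overlapping, antisense or near-identical genes may share reads. No sequences are shown, since no genome or sequence table was used here.

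Genes averaging 1 FPKM or more were tested with edgeR 4.0.16 in R 4.3.3 (3-level group, all libraries). Library sizes were the per-million factors recovered from genes of 200 or more counts. On simulated data for the 9033 genes and this comparison, calls were made for 2 of 57 genes set to a 2-fold change, for 18 of 71 set to 4-fold, for 53 of 72 set to 8-fold and for 1 of 8833 left alone. Alternatives were DESeq2 1.42.0, limma 3.58.1 on log2(FPKM + 1) or log2(FPKM + 0.1), TMM, median ratio and listed-gene scaling, 2 groups, each root alone, other filters and thresholds, a replicate block and the omission of each library. Replicate numbers carry no stated meaning. Same-numbered libraries deviated together in EcRS and EcCK (r = 0.12, 0.20 and 0.29), but not in EcRS and EcSQ (0.21, -0.17 and -0.11) or EcSQ and EcCK (-0.05, -0.04 and -0.11). Different-numbered pairs ran from -0.28 to 0.20 in EcRS and EcCK and from -0.18 to 0.29 in EcRS and EcSQ. Omitting EcSQ1 and EcCK3 together was added after seeing the data. Lists came from GO, KEGG, EC and description columns. Members and lists were chosen with earlier results of these data known, and the cellulase, heat shock and conidiation groups after their values were seen.

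Named genes were, among separated and called genes and for each direction, the 8 with the widest gap, the 8 widest with a named product, the 5 with the highest level, up to 2 per list, the 5 that differed most between the roots, members of the 2 longest runs of neighbours, and 5 genes just inside and 5 just outside the rule. Not all of them are described, and any other gene is marked as chosen after its values were seen or given with its group. Plots used matplotlib 3.10.9 (Python 3.11.15).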

Additional observations from a re-analysis of the deposited data

Results flagged for a closer look

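The levels on the 2 roots differed by the direct test for 229 of the separated genes, and this count was not stable to the choice of libraries (0 to 952). The 5 genes with the largest called excess of EcRS over EcSQ all lay below the controls on both roots. *SI65_05213*, annotated to zinc ion binding, had 237, 390.5 and 467 FPKM in EcRS, 26.8, 19.97 and 20.6 in EcSQ, against 2097, 2615 and 1214 in EcCK, a log2 difference of 4.02. *SI65_04694*, without a description, had 968, 804 and 573 FPKM in EcRS, 136, 70.9 and 68.8 in EcSQ, against 2098, 2527 and 1444 in EcCK (3.09). In both genes the EcSQ libraries stood lowest and the EcRS libraries between them and the controls. Of 3 further genes without a named function, *SI65_04040* had 108, 95.4 and 62.5 FPKM in EcRS, 10.8, 3.56 and 7.91 in EcSQ, against 271, 244 and 119.8 in EcCK (3.57). *SI65_08883* had 24.1, 24.6 and 10.6 FPKM in EcRS, 3.21, 1.70 and 0.558 in EcSQ, against 201, 200.2 and 63.1 in EcCK (3.43). *SI65_06424* had 4.15, 5.57 and 5.08 FPKM in EcRS, 0.426, 0.407 and 1.14 in EcSQ, against 15.3, 12.95 and 9.76 in EcCK (2.89), and in these too every EcRS library was above every EcSQ library.

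The 5 with the largest called excess of EcSQ over EcRS had EcRS at or near 0, so their fitted log2 differences depend on the prior count and bound nothing. Maleylacetoacetate isomerase, *SI65_09486*, an enzyme of tyrosine breakdown, had 0, 0 and 0 FPKM in EcRS, 2.39, 1.54 and 0 in EcSQ, against 13.8, 21.1 and 18.4 in EcCK (-8.89). *SI65_07345*, annotated to transmembrane transport, had 0, 0 and 0 FPKM in EcRS, 3.31, 1.40 and 0.0801 in EcSQ, against 4.28, 4.79 and 5.76 in EcCK (-10.3). The transcription factor gene *SI65_02387* had 0, 0 and 0.0322 FPKM in EcRS, 4.0003, 0.859 and 0 in EcSQ, against 4.99, 4.71 and 6.69 in EcCK (-7.01). *SI65_01405* had 0, 0 and 0 FPKM in EcRS, 0.869, 0.245 and 0 in EcSQ, against 3.38, 6.18 and 2.36 in EcCK (-8.46) and *SI65_05488* 0, 0 and 0 FPKM in EcRS, 0.472, 0.178 and 0 in EcSQ, against 7.96, 4.38 and 3.47 in EcCK (-6.94). In all 5 genes EcSQ1 was the highest root library and EcSQ3 was at most 0.080 FPKM.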

How the results depend on the processing

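The count of genes higher on the roots, 974, became 2058 with DESeq2, 1812 with TMM, 1836 with median ratio scaling and 158 with EcSQ and EcCK alone, and ran from 446 (without EcCK2) and 544 (without EcCK1) to 1261 (without EcSQ3) when libraries were left out in turn. The count of genes lower, 2275, became 814 with 2 groups, 4251 with EcRS and EcCK alone and 171 with EcSQ and EcCK alone, and ran from 1301 (without EcCK2) and 1428 (without EcCK3) to 3037 (without EcSQ1). The count above in all 6 root libraries, 988, became 1558 with TMM, 1579 with median ratio scaling and 1668 without EcSQ1 and EcCK3, and ran from 1005 to 1602 (without EcCK3) with 1 library left out. The count below, 1449, became 2864 without EcSQ1 and EcCK3 and ran from 1471 to 2693 (without EcSQ1). Fewer libraries make separation easier by construction. For the other settings the cause was not tested.

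The 229 separated genes that differed between the roots became 389 with DESeq2, 14 with limma on log2(FPKM + 0.1), 15 with limma on log2(FPKM + 1), 132 with listed-gene totals, 592 with unadjusted p and 7 without EcSQ1 and EcCK3, and ran from 0 to 952 with 1 library left out. Replicate numbers could pair EcRS with EcCK, where all 3 same-numbered pairs deviated together, but not EcSQ with either. Some different-numbered pairs reached similar correlations, so a pairing is not established. With a replicate block the counts were 811 higher and 1789 lower, for EcRS over EcCK 756 higher and 2378 lower, in place of 862 and 3101, and 3 of the separated genes differed between the roots. No gene called higher was called lower under any alternative, and 1 gene called lower was called higher with EcRS and EcCK alone. For 75 genes of the text, 22 alternatives were followed, and none of these genes changed direction. The filter at 5 FPKM held 71 of them. Calls were lost for 17 with EcSQ and EcCK alone and for 3 with 2 groups. A change of 2-fold was seldom found on simulated data, so small changes are limited by the spread between libraries.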

Other observations

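Lists not described above stood as follows. The proteasome gave 8 of 42 genes above the controls and 2 below, with *SI65_05894*, subunit alpha type-6, at 202 to 309 FPKM over the root libraries, against 78.1 to 128 in EcCK (log2FC 1.41 ± 0.30, adjusted p = 0.0067). N-glycan biosynthesis gave 16 of 62 above and 9 below, with *SI65_04820*, subunit stt3 of the complex that transfers glycans to proteins, at 85.4 to 191 FPKM over the root libraries, against 27.1 to 44.9 in EcCK (log2FC 1.85 ± 0.33, adjusted p = 0.00289). Genes of the extracellular region gave 41 of 187 above and 27 below, and 47 were called higher and 35 lower. Iron uptake gave 3 of 19 above and 2 below, and MAP kinase signalling 9 of 108 above and 8 below.

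Secondary metabolism gave 3 of 67 genes above and 9 below, with 5 called higher and 18 lower. *SI65_04500*, annotated to nonribosomal peptide synthesis, was on the side above with 18.1, 24.3 and 39.6 FPKM in EcRS, 86.4, 125 and 21.3 in EcSQ, against 1.77, 4.06 and 3.23 in EcCK (log2FC 3.93 ± 0.63, adjusted p = 0.00187). Autophagy gave 16 of 136 above and 19 below, and the peroxisome 11 of 118 above and 18 below, with 37 called lower. *SI65_03695*, in the autophagy pathway map, had 1.40, 1.10 and 0.731 FPKM in EcRS, 8.75, 3.05 and 1.91 in EcSQ, against 76.04, 89.4 and 34.9 in EcCK (log2FC -4.91 ± 0.53, adjusted p = 3.62e-04), with every root library under every control. Over all genes tested 10.9% lay above and 16% below, and no list was tested against that share.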
